A study of Arabidopsis thaliana with 12 samples.

Results

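AZD8055 and TORIN1 are 2 inhibitors of the TOR kinase, and the shoots of Arabidopsis thaliana Col-0 seedlings treated with one or the other were compared directly, without passing through the untreated plants. The comparison holds the 3 AZD8055 libraries and the 3 TORIN1 libraries, 6 of the 12 in the series, chosen by their treatment labels alone. TOR is a protein kinase that links the supply of nutrients and energy to growth. In plants, as in animals and yeast, active TOR promotes the making of ribosomes and translation, and its inhibition lowers messenger RNAs of the ribosome and of rRNA processing while autophagy is released. Both compounds were developed against the mammalian enzyme and compete with ATP in the kinase domain. AZD8055 is a pyridopyrimidine that carries morpholine groups, and TORIN1 is built on a fused tricyclic quinoline core.

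Wild-type seedlings had grown upright in constant light on agar medium until 4 days after germination. They were then moved to plates with AZD8055 at 2 µM, TORIN1 at 10 µM or the solvent DMSO (mock) for 8 h, shoots were cut, and polyadenylated RNA was sequenced. A group of 3 libraries with KU63794 at 20 µM and the 3 mock libraries entered the fit but not the contrast. Together with the compared libraries they set which genes were tested, the scaling and the spread. The mock libraries are also a reference for levels. The inhibitor doses differed, so compound and dose cannot be told apart, and each difference is one between the treatments as given. Whether the 3 libraries of a treatment were grown apart is not in the labels. The p-values therefore rest on a spread that may be technical.

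Between 9312409 and 14696645 counts were assigned to genes in the 6 libraries, so that a gene with 0 counts could still be present at 0.204 to 0.322 CPM (counts scaled to a fixed library total), a limit that covers counting error only. The TORIN1 libraries were not alike. On the second principal component, which held 15.4% of the variance of all 12 libraries, TORIN1 replicates 2 and 3 lay at -40.2 and -40.8 and TORIN1 replicate 1 at 9.19, and the AZD8055 libraries lay between -12.5 and 31.1. Seed storage transcripts moved with this split, since they took 0.0203% of the counts in TORIN1 replicate 1 and 0.000247% and 0.000265% in replicates 2 and 3. In the AZD8055 libraries they took 0.0182%, 0.00559% and 2.4e-05%, and 10 of 13 such genes passed the count filter. Their part in the results was not tested. All 5 mesophyll markers passed it and took 4.2% to 5.74% of the counts with AZD8055 and 4.35% to 5.59% with TORIN1, and 5 of 10 root markers passed it.

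Counts of 17933 genes were compared, and 323 differed between AZD8055 and TORIN1 at an adjusted p below 0.05 in edgeR, which is 1.8% of the genes tested. With AZD8055, 89 genes were higher (0.496%) and 234 were lower (1.3%). The genes that were higher changed more steeply, with a median log2 fold change of 1.01 and 45 genes at least 2-fold apart. Those that were lower had a median of -0.58 and 15 genes at least 2-fold apart, and they were the more abundant, at a median of 50.4 CPM against 9.27 CPM. Over all genes tested the median log2 fold change was -0.01, and 2901 genes had an unadjusted p below 0.05. In all 323 genes the AZD8055 and TORIN1 libraries did not overlap, as in 19.1% of all genes tested. The balance of directions depended on the scaling. Lower genes made up 72.4% of the calls with TMM scaling, 55% with upper-quartile scaling (68 higher and 83 lower) and 34.4% with library totals alone (40 higher and 21 lower).

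**Figure D1:**
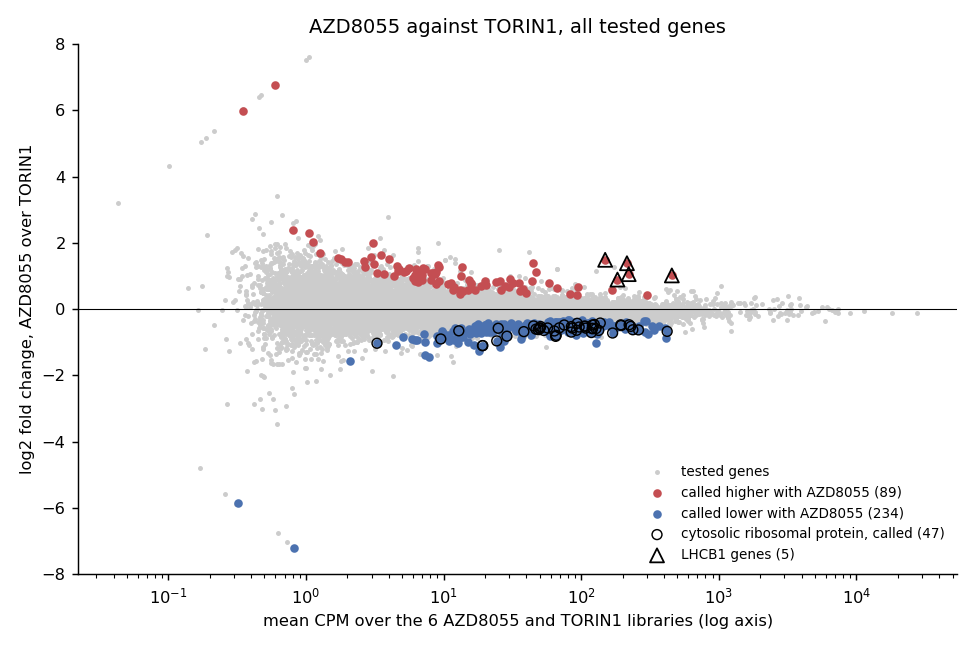
Each point is a tested gene, placed by its mean CPM over the 6 libraries on a log axis and by its log2 fold change of AZD8055 over TORIN1. Called genes are coloured, open circles mark the 47 called cytosolic ribosomal protein genes and triangles the 5 LHCB1 genes, which stand above the other genes of their abundance.

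The number of calls depended on which libraries were fitted. With the 6 compared libraries alone, 5 genes were higher and 6 lower, and 10 of the 323 were called again. LHB1B1, LHB1B2, CAB1, CAB2, AAP4, HDT4, AHP4, RPL3B and AT3G51870 were among them. No type-A response regulator, translation factor, endoplasmic reticulum folding gene or cell wall gene passed in that fit, and 1 cytosolic ribosomal protein gene did. In the fit of all 12, without TORIN1 replicate 2 it was 13 higher and 6 lower, without TORIN1 replicate 3 it was 7 and 7, and without AZD8055 replicate 3 it was 32 and 29. With both TORIN1 replicates 2 and 3 left out, which leaves 1 TORIN1 library assumed to vary like the other groups, edgeR called 4 genes higher and 0 lower (627 and 803 at an unadjusted p below 0.05). Of the 323, 9 stayed called whichever of the 6 libraries was left out, 43 stayed called in at least 4 of the 6 fits, and 17 were called in none. The 9 genes were the light-harvesting genes LHB1B1, LHB1B2, CAB1 and CAB2, the amino acid transporter AAP4, the plastid-genome gene ATCG00750, the histone deacetylase-like gene HDT4, the ribosomal protein gene PGY1 and the carrier gene AT3G51870.

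**Figure D2:**
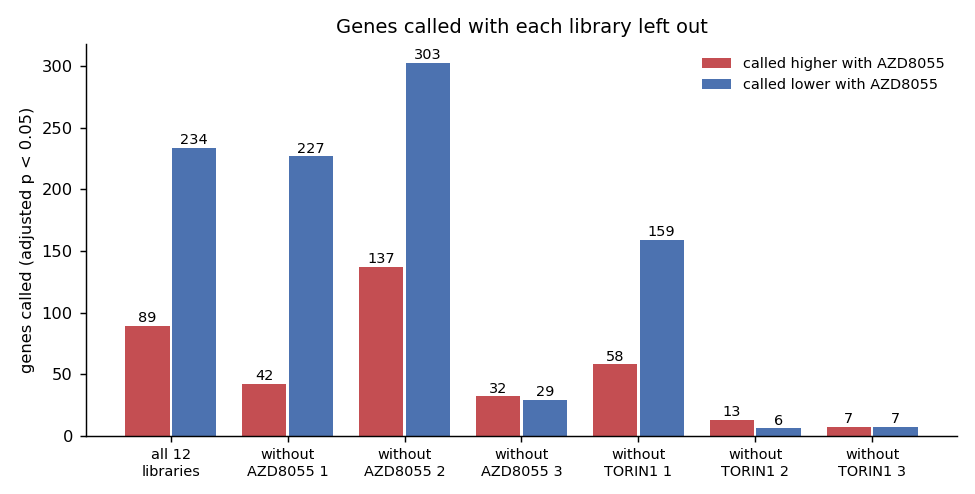
Bars give the genes called higher (red) and lower (blue) with AZD8055 against TORIN1 in edgeR, on the vertical axis, for all 12 libraries and with each of the 6 compared libraries left out. Calls ran from 303 lower without AZD8055 replicate 2 to 6 lower without TORIN1 replicate 2.

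The clearest difference was in the LHCB1 genes, which encode the main chlorophyll a/b-binding protein of the photosystem II antenna. All 5 members were higher with AZD8055, by 1.85-fold to 2.8-fold, and in each of them TORIN1 lay below mock. In these bulk shoot samples fewer cells of a type and less RNA per cell cannot be told apart. LHB1B2 (AT2G34420) and LHB1B1 (AT2G34430) are neighbours on chromosome 2 that are transcribed away from each other, with 1038 bases between them. CAB1, CAB2 and CAB3 lie together within 6835 bases of chromosome 1. The 250 bases before the annotated starts of the chromosome 2 pair are shown, since this pair had the steepest change of the family, and capitals mark GATAA on either strand, the core of the I-box of light-regulated genes. The windows are chr2:14523569-14523818 on the minus strand for LHB1B2 and chr2:14524357-14524606 on the plus strand for LHB1B1, from the RefSeq assembly TAIR10.1.
LHB1B2: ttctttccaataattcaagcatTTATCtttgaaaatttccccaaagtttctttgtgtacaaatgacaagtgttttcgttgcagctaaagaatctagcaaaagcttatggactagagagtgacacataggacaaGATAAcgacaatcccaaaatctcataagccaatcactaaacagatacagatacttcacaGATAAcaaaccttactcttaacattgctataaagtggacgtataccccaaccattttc
LHB1B1: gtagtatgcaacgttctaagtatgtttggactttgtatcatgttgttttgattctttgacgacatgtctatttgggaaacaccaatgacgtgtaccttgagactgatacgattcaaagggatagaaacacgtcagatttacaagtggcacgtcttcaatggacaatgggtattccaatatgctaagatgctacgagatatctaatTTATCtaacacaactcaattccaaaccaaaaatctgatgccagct
The first window holds GATAA 3 times and the second once, in the reverse direction. All 5 LHCB1 windows hold it, as do 55.7% of the windows of all genes tested.

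LHB1B2 stood at 297, 273 and 362 CPM with AZD8055, at 120, 129 and 109 CPM with TORIN1 and at 189, 212 and 173 CPM in mock. All AZD8055 libraries were above all mock libraries and all TORIN1 libraries below them. Its log2 fold change of AZD8055 over TORIN1 was 1.38 (SE 0.12; edgeR adjusted p = 0.000188), the smallest p of the comparison. LHB1B1 showed the same order, with 207, 183 and 270 CPM for AZD8055, 74.6, 95.5 and 66.1 CPM for TORIN1 and 138, 153 and 108 CPM for mock, and a log2 fold change of 1.49 (SE 0.19; edgeR adjusted p = 0.00747). The 3 groups did not overlap in this gene either.

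CAB1 (AT1G29930) was at 664, 507 and 658 CPM with AZD8055, against 265, 354 and 287 CPM with TORIN1 and 521, 580 and 483 CPM in mock. Here the AZD8055 and mock libraries overlapped, and the TORIN1 libraries were below both. Its log2 fold change was 1.01 (SE 0.13; edgeR adjusted p = 0.00444). CAB2 changed by 1.05 (SE 0.14; edgeR adjusted p = 0.00444) from 126, 170 and 137 CPM with TORIN1 to 321, 251 and 325 CPM with AZD8055, and its mock libraries lay at 299, 306 and 244 CPM. CAB3 changed by 0.89 (SE 0.13; edgeR adjusted p = 0.00926), with 121, 150 and 116 CPM under TORIN1, 230, 208 and 276 CPM under AZD8055 and 260, 235 and 214 CPM in mock. In CAB2 and CAB3 too, mock overlapped AZD8055 and not TORIN1.

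The coding sequences of LHCB1 genes are nearly identical, so reads can be split among them in ways the counting does not show, and values of single members are uncertain. Summed over the 5 genes the levels were 1718, 1422 and 1892 CPM with AZD8055, 706, 898 and 715 CPM with TORIN1 and 1407, 1487 and 1222 CPM in mock. Since the inhibitors did not overlap in any of the 5 genes, the sum could not overlap either. The lowest AZD8055 library was within the range of mock. In CAB3 the call was lost only without TORIN1 replicate 3. With both TORIN1 replicates 2 and 3 left out, 1 of the 5 calls remained.

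**Figure D3:**
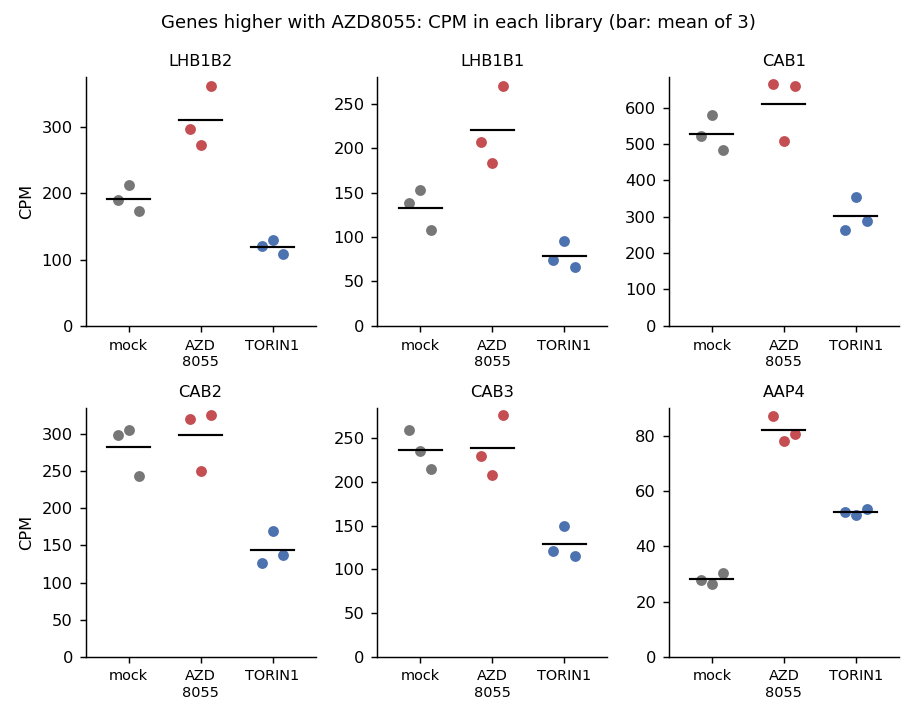
CPM in each library of mock (grey), AZD8055 (red) and TORIN1 (blue), on axes that start at 0, with bars for the mean of 3 libraries. In the 5 LHCB1 genes TORIN1 lies below mock, and in AAP4 both inhibitors lie above mock.

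Of the 29 tested members of the photosynthesis list, 5 were called higher (17.2%, beside 0.496% of all genes), and these were the LHCB1 genes. In 8 of the 29, the LHCB1 genes included, every AZD8055 library was above every TORIN1 library, beside 1435 of all 17933 genes tested (8%). The other 24 had log2 fold changes from -0.32 to 0.60 with a median of 0.16, and none passed the test in edgeR (smallest adjusted p = 0.0624). Of these 24, 8 had an unadjusted p below 0.05 in edgeR, beside 2901 of all 17933 genes tested, and DESeq2 called 2. Whether they changed less than LHCB1 was not tested. That smallest p belonged to PSAD-1, a photosystem I subunit, at 69.6, 76.2 and 85.4 CPM with AZD8055 and 43.5, 56.9 and 51.9 CPM with TORIN1, which did not overlap. LHCB2.1, the partner antenna gene nearest to LHCB1 in function, stood at 1120, 848 and 1430 CPM with AZD8055 and 772, 794 and 886 CPM with TORIN1, a log2 fold change of 0.47 (edgeR adjusted p = 0.25). The AZD8055 and TORIN1 libraries overlapped in LHCB2.1. RBCS1A, the most abundant gene of the list and a small subunit of Rubisco, had a log2 fold change of -0.12.

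Outside photosynthesis, the firmest gene of those higher with AZD8055 was AAP4 (AT5G63850), an amino acid permease of the plasma membrane. It stood at 87.2, 78.2 and 80.9 CPM with AZD8055, 52.3, 51.5 and 53.4 CPM with TORIN1 and 27.9, 26.3 and 30.2 CPM in mock. The 3 groups were separate, with both inhibitors above mock and AZD8055 above TORIN1 (log2 fold change 0.65, SE 0.08; edgeR adjusted p = 0.00444). HCD1, named for a 3-hydroxyacyl-CoA dehydratase, was at 8.67, 7.31 and 7.83 CPM with AZD8055 and 2.53, 3.96 and 3.51 CPM with TORIN1. Its mock libraries, at 6.02, 4.85 and 5.21 CPM, lay between, and its log2 fold change was 1.25 (SE 0.19; edgeR adjusted p = 0.00926). MYBR1 (MYB44), a MYB factor of stress responses, was high with AZD8055 alone among these 3 groups, with 15.3, 10.6 and 13.4 CPM against 5.15, 6.46 and 4.88 CPM with TORIN1 and 5.61, 5.23 and 4.17 CPM in mock. The TORIN1 and mock libraries overlapped, and the log2 fold change of AZD8055 over TORIN1 was 1.26 (SE 0.19; edgeR adjusted p = 0.01). Of these 3 genes, HCD1 and MYBR1 were not called without TORIN1 replicate 3.

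COR47, a dehydrin of cold and drought responses, was the only called gene among 19 tested members of the abscisic acid and dehydration list (5.26%, beside 0.496% of all genes higher). It was at 101, 104 and 143 CPM with AZD8055, 84.8, 69.8 and 67 CPM with TORIN1 and 66.1, 68.8 and 55.8 CPM in mock (log2 fold change 0.65, SE 0.14; edgeR adjusted p = 0.0394). AZD8055 was above the other groups, and the call was lost in 3 of the 6 fits with a library left out. IPMI2, an isopropylmalate isomerase subunit of the aliphatic glucosinolate list, had 8.24, 3.75 and 2.67 CPM with AZD8055 against 0.778, 2.04 and 0.915 CPM with TORIN1 (log2 fold change 2.01, SE 0.47; edgeR adjusted p = 0.044). AZI1, a lipid transfer-like gene of systemic immunity, had the same log2 fold change of 2.01 at no more than 2.24 CPM in any AZD8055 or TORIN1 library. AZD8055 replicate 1 was the highest library in IPMI2 and the lowest AZD8055 library in AZI1. Without it the log2 fold change of IPMI2 was 1.39 (edgeR adjusted p = 0.13), and IPMI2 was called in 2 and AZI1 in 1 of the 6 fits with a library left out.

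The steepest differences among genes of at least 1 CPM were in weakly expressed genes. AT3G59840, annotated as allyl alcohol dehydrogenase-like, had 2.78, 1.38 and 1.12 CPM with AZD8055 and 0.292, 0.566 and 0.229 CPM with TORIN1, and its log2 fold change was 2.31 (SE 0.52; edgeR adjusted p = 0.0407). Of the 6 fits with a library left out, 1 called it. HERK2, a receptor kinase of the family that monitors the cell wall, was at 3.47, 2.08 and 2.92 CPM with AZD8055 and 0.778, 1.13 and 1.22 CPM with TORIN1 (log2 fold change 1.42; edgeR adjusted p = 0.0396), and it too was called in 1 of 6. Organelle transcripts without a name in the reference were among the calls as well. ATCG00750 of the plastid genome stood at 13.4, 12.6 and 13.2 CPM with AZD8055, 4.67, 7.02 and 4.2 CPM with TORIN1 and 11, 9.51 and 12 CPM in mock, a log2 fold change of 1.32 (SE 0.18; edgeR adjusted p = 0.00638). The AZD8055 libraries were above mock and the TORIN1 libraries below it. Of 89 plastid-genome genes tested 3 were called, all higher with AZD8055, beside 0.496% of all genes, and the median log2 fold change of the 89 was 0.17. Of 4 mitochondrial-genome genes tested 2 were called, both higher with AZD8055, and the median of the 4 was 0.91. ATMG00020 was at no less than 52.5 CPM with AZD8055, at 30.6, 25 and 19.1 CPM with TORIN1 and at 42.2 to 56.8 CPM in mock (log2 fold change 1.39; edgeR adjusted p = 0.0198). In ATMG01390 the change was 1.63 (edgeR adjusted p = 0.0394), and these genes were called in 4 and 1 of the 6 fits with a library left out. TORIN1 did not overlap mock in either. Plastid transcripts took 0.299% to 0.367% of the counts with AZD8055 and 0.23% to 0.274% with TORIN1. Libraries were selected for poly(A), so these are a residue of organelle RNA, and a change in the RNA cannot be told apart from a change in how much of it was carried over.

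The larger group, lower with AZD8055 than with TORIN1, was led by the cytosolic ribosome. Of 178 tested genes for cytosolic ribosomal proteins, 47 were lower with AZD8055 (26.4%, beside 1.3% of all genes), none was higher in edgeR (2 at an unadjusted p below 0.05, 1 in DESeq2, 0 in limma voom), and the median log2 fold change of the 178 was -0.46. The 47 ranged from -1.11 to -0.42. Of the 131 that did not pass the test 115 also had a value below 0, beside 9228 of all 17933 genes tested. The median of the 131 was -0.37. In all 47 the mock mean was above both inhibitors. The medians of the AZD8055 and TORIN1 means over the mock mean, on the log2 scale, were -1.20 and -0.76 for the 178 genes, so that TORIN1 levels were lower than mock and AZD8055 levels lower still. These genes together took 1.4%, 1.39% and 0.98% of the counts with AZD8055, 1.72%, 1.65% and 1.48% with TORIN1 and 2.74% to 2.96% in mock.

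The lowest of the 6 shares belonged to AZD8055 replicate 3. Without that library 6 ribosomal protein genes were called, and the median log2 fold change was -0.32. The count was 21 without TORIN1 replicate 1, 1 without TORIN1 replicate 2, 3 without TORIN1 replicate 3 and none with TORIN1 replicates 2 and 3 left out, while the median was between -0.42 and -0.47. It was 7 with library totals in place of TMM and 20 with upper-quartile scaling, with medians of -0.40 and -0.42. The list median was below 0 in each of these fits, while the number of genes that passed varied. Ribosomal protein genes occur in families of near-identical copies, so values of single copies are uncertain.

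PGY1 (AT2G27530), which encodes ribosomal protein L10a and is known for its part in leaf polarity, was called in all 6 fits with a library left out. It stood at 369, 372 and 375 CPM in mock, 200, 214 and 218 CPM with TORIN1 and 124, 145 and 114 CPM with AZD8055. The groups formed separate steps, and the log2 fold change of AZD8055 over TORIN1 was -0.72 (SE 0.1; edgeR adjusted p = 0.00926). RPL3B (AT1G61580), 1 of the copies of ribosomal protein L3, was at 12.9, 12.5 and 11.4 CPM with AZD8055, 23.5, 28.4 and 27.1 CPM with TORIN1 and 29, 35.6 and 30.8 CPM in mock. TORIN1 stood just below mock there and AZD8055 far below both (log2 fold change -1.11, SE 0.17; edgeR adjusted p = 0.0108). AT4G10450, of the L6 family, had 10.2, 15.9 and 10.4 CPM with AZD8055, 24.2, 31.4 and 22.9 CPM with TORIN1 and 48.2 to 55.5 CPM in mock (log2 fold change -1.1, SE 0.17; edgeR adjusted p = 0.01). AT2G20450, of the L14 family, had 51.9, 53.9 and 35.7 CPM with AZD8055, 82.8, 82.7 and 84.5 CPM with TORIN1 and 150 to 155 CPM in mock (log2 fold change -0.82, SE 0.13; edgeR adjusted p = 0.0126). BBC1, for ribosomal protein L13, was lowest in AZD8055 replicate 3, with 110, 84.6 and 58.6 CPM against 166, 179 and 173 CPM with TORIN1, and ATL5, for ribosomal protein L5, was at 256, 222 and 209 CPM against 389, 418 and 357 CPM. RPL3B, AT2G20450 and BBC1 were not called without TORIN1 replicate 2 or without TORIN1 replicate 3.

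Plant ribosomal protein genes are known for 2 promoter elements, the telo-box AAACCCTA and site II, written TGGGCC or TGGGCT. Either strand was searched in the 250 bases before the annotated start. Of the genes lower with AZD8055, 43.8% held site II and 8.58% the telo-box, beside 23.1% and 3.6% of all genes tested. With cytosolic ribosomal protein genes set aside the shares among the lower genes were 37.6% and 7.53%. Within the ribosomal protein genes the called ones were not richer, since 68.1% of the 47 and 70.2% of the other 131 held site II, and 12.8% and 22.1% the telo-box. Of the genes higher with AZD8055, 20.5% held site II and 1.2% the telo-box. The windows of RPL3B, at chr1:22723153-22723402 on the minus strand, and of AT2G20450, at chr2:8813582-8813831 on the plus strand, are shown because both of these steeply changed genes hold a pair of site II motifs, which are in capitals (RefSeq TAIR10.1).
RPL3B: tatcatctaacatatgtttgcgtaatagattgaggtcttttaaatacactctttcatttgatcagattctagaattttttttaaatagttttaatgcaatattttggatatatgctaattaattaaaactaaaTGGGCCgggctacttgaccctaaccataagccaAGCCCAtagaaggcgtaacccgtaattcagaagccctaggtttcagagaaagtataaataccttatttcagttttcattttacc
AT2G20450: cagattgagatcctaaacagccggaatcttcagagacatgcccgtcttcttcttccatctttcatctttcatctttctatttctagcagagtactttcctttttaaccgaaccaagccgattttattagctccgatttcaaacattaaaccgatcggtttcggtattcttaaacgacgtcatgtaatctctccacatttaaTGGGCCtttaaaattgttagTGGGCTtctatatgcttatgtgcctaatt
Each of these windows overlaps the neighbouring gene, AT1G61590 and AT2G20440. Neither motif occurs in the windows of PGY1 and HDT4. A match is a description of the letters and not a test of binding.

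The other motifs searched were the G-box CACGTG, the evening element AAAATATCT, the W-box TTGACC or TTGACT, the GCC-box GCCGCC, the heat shock core GAANNTTC and the SOG1 motif. The G-box was in 2.58% of the lower genes, 7.23% of the higher genes and 7.59% of all genes. The evening element, a motif of clock-controlled genes, was in 0.429%, 4.82% and 2.53%. W-boxes were in 21.9%, 25.3% and 27.8%, and the GCC-box in 2.15%, 2.41% and 1.87%. The heat shock core was in 9.01%, 3.61% and 9.17%, and the SOG1 motif in 10.7%, 6.02% and 8.64%.

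In the ribosome biogenesis list, of nucleolar and pre-ribosome factors, 3 of 25 members were lower with AZD8055 (12%, beside 1.3% of all genes) and 22 did not pass the test. The list median was -0.42, and 24 members had values below 0, beside 9228 of all 17933 genes tested. With upper-quartile scaling, library totals or the 6 libraries alone 1 was called. HDT4 (AT2G27840), a plant-specific histone deacetylase-like protein of the nucleolar family, was at 48.5, 52.3 and 49.7 CPM in mock, 26.9, 26.6 and 23.7 CPM with TORIN1 and 9.71, 13.6 and 8.86 CPM with AZD8055. Its groups were widely separate, its log2 fold change was -1.27 (SE 0.16; edgeR adjusted p = 0.00444) and each fit with a library left out called it. HD2B and HDA3, of the same deacetylase family, had values of the same sign that did not pass, and the family is not given in full here. HD2B was at 127, 116 and 70.2 CPM with AZD8055 and 172, 177 and 150 CPM with TORIN1 (edgeR adjusted p = 0.0782). HDA3 was at 30.9, 32.2 and 15 CPM against 53, 52.9 and 40.1 CPM (edgeR adjusted p = 0.095). NUC-L1, the nucleolin that opens rDNA chromatin, stood at 270, 312 and 212 CPM with AZD8055, 456, 414 and 366 CPM with TORIN1 and 648 to 689 CPM in mock (log2 fold change -0.64; edgeR adjusted p = 0.0359). The GTPase AtNug2, which acts on the pre-60S particle, changed by -0.42 (edgeR adjusted p = 0.044), and it and NUC-L1 were each called in 1 of 6 fits with a library left out. Of the list 1 to 5 members were called when single libraries were left out, and HDT4 was among them each time.

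Outside the lists, the same direction was seen in AT2G40430, the Nop53 protein of 60S maturation, at 77.8, 82.5 and 66.8 CPM with AZD8055 and 109, 124 and 117 CPM with TORIN1, and in MEE65, a Brf1-like factor of RNA polymerase III, at 41.1, 48.2 and 43.2 CPM against 65.6, 71.4 and 77.3 CPM. Mock was above both inhibitors, at 152 to 158 CPM and 88.1 to 91.3 CPM. Their log2 fold changes were -0.62 (SE 0.09; edgeR adjusted p = 0.01) and -0.70 (SE 0.11; edgeR adjusted p = 0.0116). AT3G51870, a carrier of the mitochondrial substrate carrier family, had 38.5, 41.5 and 41.6 CPM in mock, 20.6, 22.3 and 24.7 CPM with TORIN1 and 10.8, 11.4 and 9.72 CPM with AZD8055. TORIN1 thus stood between separate mock and AZD8055 libraries, and with a log2 fold change of -1.09 (SE 0.12; edgeR adjusted p = 0.00135) it had the second smallest p of all genes. AT1G14810, a semialdehyde dehydrogenase of amino acid synthesis, was at 56.1, 56.8 and 55 CPM with AZD8055 and 75.2, 91.1 and 92 CPM with TORIN1 (log2 fold change -0.62, SE 0.09; edgeR adjusted p = 0.00926).

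Of 16 translation factors 3 were lower (18.8%, beside 1.3% of all genes) and none higher in edgeR (DESeq2 called 1 higher), with a list median of -0.26. The poly(A)-binding protein gene PAB4 was at 97, 87.6 and 67.4 CPM with AZD8055 and 112, 138 and 135 CPM with TORIN1, with 226 to 240 CPM in mock (log2 fold change -0.61; edgeR adjusted p = 0.0374). The initiation factor genes EIF3A and EIF3E changed by -0.36 and -0.35 (edgeR adjusted p = 0.0407 for each). No member passed without AZD8055 replicate 3, without TORIN1 replicate 2 or 3, or with library totals. Chloroplast ribosomal proteins had a median of -0.19, with values below 0 in 32 of 39 tested, beside 9228 of all 17933 genes tested. Of the 39 only PSRP6 was called (2.56%, beside 0.496% of all genes higher). PSRP6, a plastid-specific ribosomal protein, was higher with AZD8055, at 8.15, 8.3 and 8.77 CPM against 4.47, 3.96 and 4.73 CPM with TORIN1 (log2 fold change 0.93; edgeR adjusted p = 0.0297). Mock, at 6.64, 7.42 and 7.82 CPM, lay between in PSRP6, which was called in 2 of 6 fits with a library left out.

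**Figure D4:**
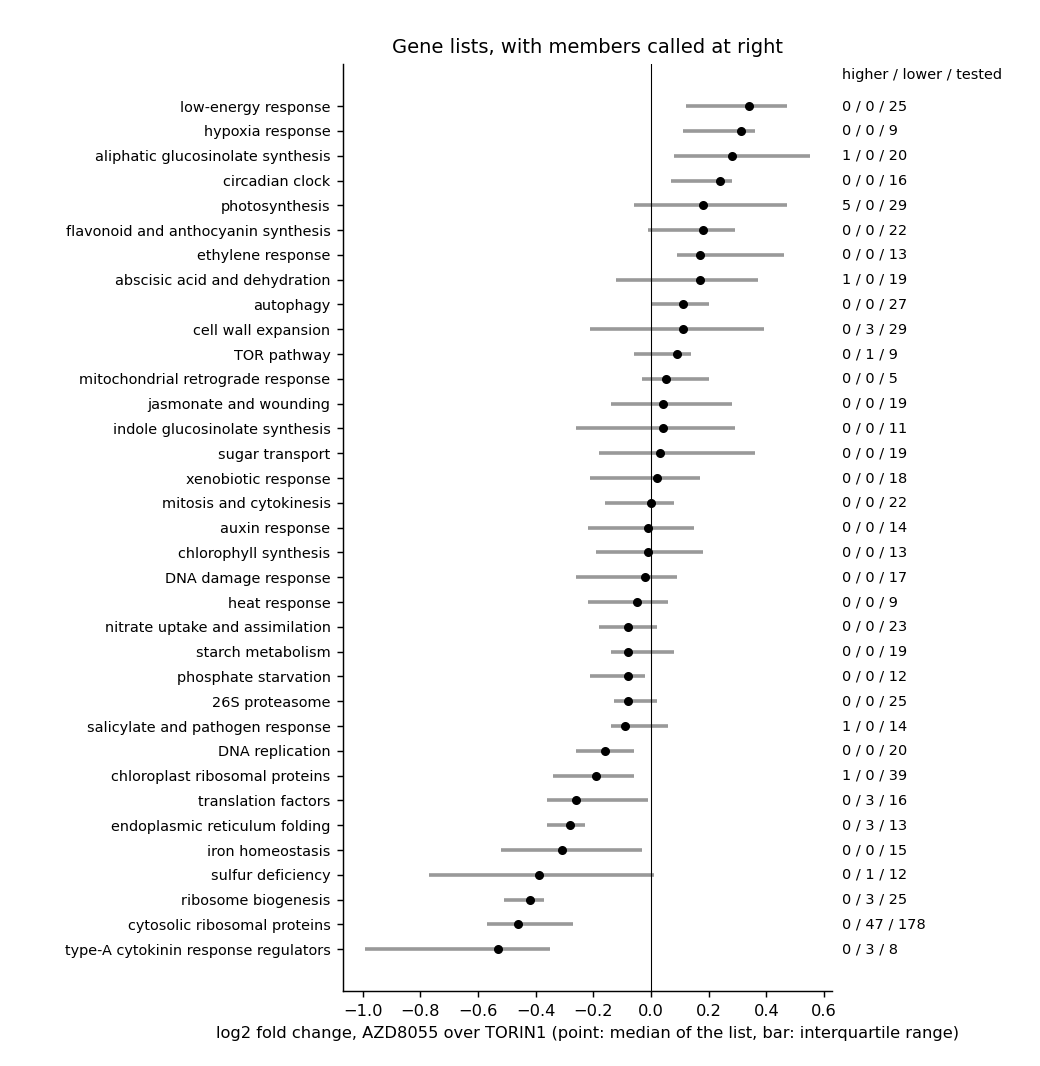
Each of 35 gene lists is placed by the median log2 fold change of AZD8055 over TORIN1 (point) and the interquartile range of its tested genes (bar), with the numbers called higher, called lower and tested at the right. Type-A response regulators, at -0.53, cytosolic ribosomal proteins, at -0.46, and ribosome biogenesis, at -0.42, are at the low end.

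Against mock, neither inhibitor overlapped it in 196 of the 234 lower genes (83.8%, beside 33.2% of all tested genes with a value below 0). In 31 (13.2%, beside 13.8%, a share near the background) TORIN1 overlapped mock and AZD8055 did not. The called type-A response regulators, which are induced by cytokinin and dampen its signal, were among these 31. All 8 tested members had values below 0, beside 9228 of all 17933 genes tested. ARR4, ARR6 and ARR7 were called (37.5%, beside 1.3% of all genes lower). ARR4 (AT1G10470) was at 54.3, 66.6 and 63 CPM with AZD8055, 85.5, 105 and 105 CPM with TORIN1 and 113, 102 and 111 CPM in mock (log2 fold change -0.69, SE 0.12; edgeR adjusted p = 0.0155). ARR7 was at 11.4, 9.98 and 8.86 CPM with AZD8055, 15.6, 22.1 and 22.3 CPM with TORIN1 and 22.5, 26.2 and 19.9 CPM in mock (log2 fold change -0.98, SE 0.17; edgeR adjusted p = 0.0155). In ARR6, at 4.94, 4.74 and 4.9 CPM against 9.72, 11.8 and 7.7 CPM with TORIN1 and 12.1, 8.66 and 11.5 CPM in mock, the change was -0.99 (SE 0.2; edgeR adjusted p = 0.0283). In each, TORIN1 overlapped mock and AZD8055 was below both.

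The remaining regulators did not pass. ARR9 changed by -0.38 (edgeR adjusted p = 0.264), RR5 by -0.37 (0.338), RR16 by -0.28 (0.631) and RR3 by -0.17 (0.543), all adjusted p from edgeR. ARR15, at 0 to 1.19 CPM with AZD8055 and 0.793 to 1.83 CPM with TORIN1, was too scarce for its value of -1.25 (SE 0.96; edgeR adjusted p = 0.579) to be read. ARR3 and RR17 were below the count filter. No regulator was called without TORIN1 replicate 2 or without TORIN1 replicate 3, and 1 was called without AZD8055 replicate 3. AHP4, a phosphotransfer protein of the cytokinin relay family, differed the other way round from mock. It stood at 40, 31.6 and 34.4 CPM with TORIN1, against 19.1, 14.6 and 14.5 CPM with AZD8055 and 19.1, 15.2 and 12.9 CPM in mock, so that TORIN1 alone was high (log2 fold change -1.13, SE 0.21; edgeR adjusted p = 0.0269). Of the 6 fits with a library left out, 2 called AHP4.

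Protein-folding genes of the endoplasmic reticulum had values below 0 in 13 of 13 tested members, beside 9228 of all 17933 genes tested. Their median was -0.28, and 3 passed (23.1%, beside 1.3% of all genes lower). ATERDJ3B, a co-chaperone of the luminal Hsp70, was at 62.1, 61.5 and 62.7 CPM with AZD8055, 89, 85.1 and 95.9 CPM with TORIN1 and 94.1, 89.3 and 94.9 CPM in mock. TORIN1 overlapped mock and AZD8055 was below both (log2 fold change -0.54, SE 0.08; edgeR adjusted p = 0.00926). The lectin chaperone CNX1 changed by -0.52 and the luminal Hsp70 BIP1 by -0.48 (edgeR adjusted p = 0.0251 and 0.0356). BIP1 was at 126, 122 and 134 CPM with AZD8055, 160, 183 and 189 CPM with TORIN1 and 167, 177 and 182 CPM in mock. None was called without TORIN1 replicate 3, and 1 was called without TORIN1 replicate 2 or without AZD8055 replicate 3.

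**Figure D5:**
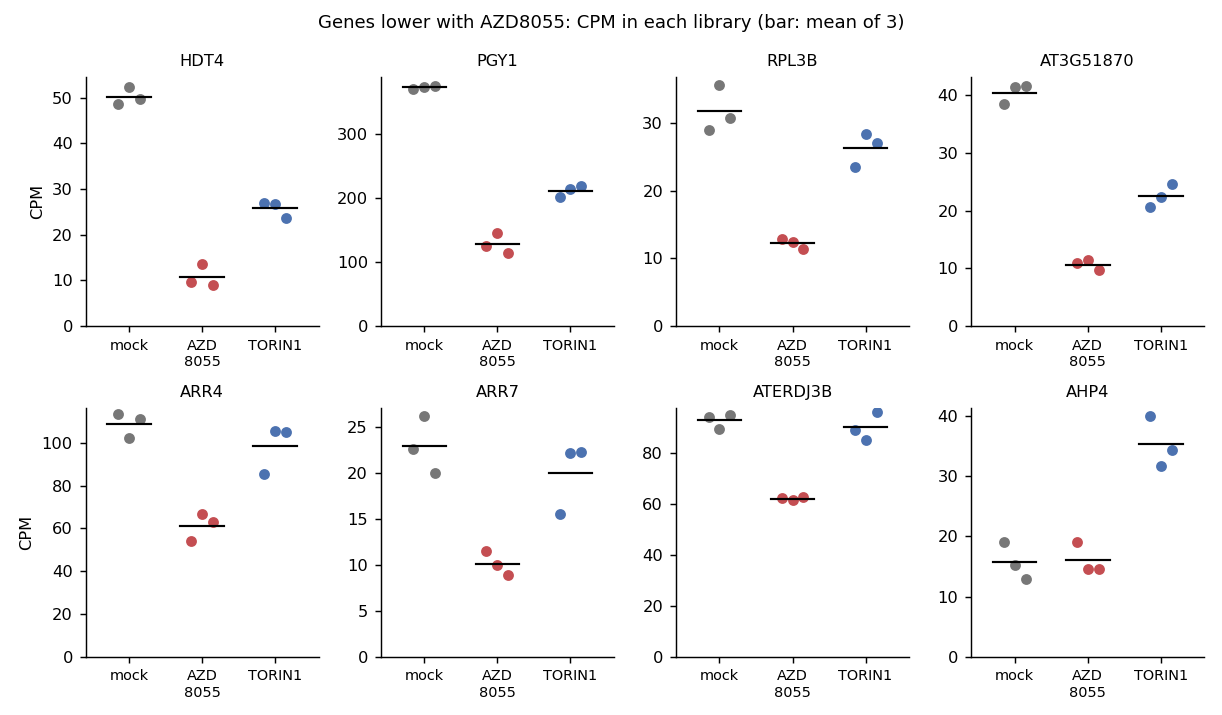
CPM in each library of mock (grey), AZD8055 (red) and TORIN1 (blue), on axes that start at 0, with bars for the mean of 3 libraries. HDT4, PGY1 and AT3G51870 step down from mock to TORIN1 to AZD8055, TORIN1 lies near mock in RPL3B, ARR4, ARR7 and ATERDJ3B, and only TORIN1 is high in AHP4.

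Expansins, which loosen the cell wall, were split within their list. EXPA1, EXPA10 and EXPA11 were lower with AZD8055 (10.3% of the 29 tested wall genes, beside 1.3% of all genes), while the median of the 29 was 0.11. EXPA1 was at 20.8, 21.5 and 23.2 CPM with AZD8055, 24.6, 35.7 and 36.9 CPM with TORIN1 and 86.9, 93.2 and 87.5 CPM in mock. Both inhibitors were far below mock, and the gap between them was narrow in TORIN1 replicate 1 (log2 fold change -0.57, SE 0.13; edgeR adjusted p = 0.0461). EXPA10 changed by -0.75 and EXPA11 by -0.71 (edgeR adjusted p = 0.0433 and 0.044), and EXPA10 with TORIN1, with its lowest library at 14.6 CPM, overlapped mock at 13.9 to 17.2 CPM. Without AZD8055 replicate 1, AZD8055 replicate 3, TORIN1 replicate 2 or TORIN1 replicate 3 no wall gene was called, and without AZD8055 replicate 1 the list median was -0.03.

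Single genes of transport and nutrition were also lower with AZD8055. They were not the steepest, since AT3G19508, annotated to the LYR family, changed by -1.57 (SE 0.35; edgeR adjusted p = 0.0394). Not all genes with large changes, in either direction, are named in this report. ATSDI1, a gene induced when sulfur is short, was at 4.94, 3.85 and 3.78 CPM with AZD8055, 15.8, 6.23 and 12.1 CPM with TORIN1 and 8.76, 5.52 and 6 CPM in mock (log2 fold change -1.45, SE 0.31; edgeR adjusted p = 0.0396). TORIN1 replicate 2 was within the mock range and the other TORIN1 libraries above it. ATSDI1 was the only 1 of 12 tested sulfur-deficiency genes to pass (8.33%, beside 1.3% of all genes lower), with a list median of -0.39. UMAMIT14, an amino acid exporter of phloem and seed tissues, was at 4.16, 4.64 and 3.44 CPM with AZD8055, 13.6, 9.52 and 8.7 CPM with TORIN1 and 6.71, 4.76 and 3 CPM in mock (log2 fold change -1.38, SE 0.29; edgeR adjusted p = 0.0353). Only TORIN1 was above mock. ATSDI1, UMAMIT14 and AT3G19508 were each called in 1 of 6 fits with a library left out.

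Of 9 tested genes of the drug target and its pathway, 1 was called, lower with AZD8055 (11.1%, beside 1.3% of all genes). TOR stood at 135, 148 and 168 CPM with AZD8055, 144, 138 and 125 CPM with TORIN1 and 113, 121 and 119 CPM in mock, and the inhibitor groups overlapped (log2 fold change 0.15, SE 0.1; edgeR adjusted p = 0.503). RAPTOR1, the substrate-binding partner, changed by 0.17 and its paralogue RAPTOR2 by 0.14, and LST8-1, the stabilising partner, by 0.09. LST8-1 was at 145, 143 and 146 CPM with AZD8055 and 135, 136 and 139 CPM with TORIN1, which did not overlap (edgeR adjusted p = 0.644). The S6 kinase genes PK1 and S6K2 changed by -0.06 and 0.03, the phosphatase-associated TAP46 by -0.15 and the kinase YAK1, which acts against growth, by 0.09. None of these 8 passed, with edgeR adjusted p from 0.445 to 0.949, and the 95% interval reached a median of 0.21 log2 units to either side in the list. The called gene was AT3G51800, the homologue of the growth regulator EBP1, which carries the symbol ATG2 in the reference. It was at 97.7, 88.2 and 65.6 CPM with AZD8055, 133, 137 and 118 CPM with TORIN1 and 198, 186 and 217 CPM in mock (log2 fold change -0.63, SE 0.14; edgeR adjusted p = 0.0414), and it was called in 1 of 6 fits with a library left out. LST8-2 was below the count filter.

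Many responses known from TOR inhibition or stress showed no called gene between the inhibitors. In edgeR no member passed among 27 autophagy genes (median log2 fold change 0.11), 25 low-energy response genes (0.34), 22 flavonoid and anthocyanin genes (0.18), 19 jasmonate and wounding genes (0.04), 20 DNA replication genes (-0.16) and 22 genes of mitosis and cytokinesis (0.00). The same held for 25 proteasome genes (-0.08), 19 starch genes (-0.08), 23 nitrate genes (-0.08), 18 xenobiotic response genes (0.02), 17 DNA damage response genes (-0.02) and 15 iron homeostasis genes (-0.31). Values were above 0 in 23 of 25 low-energy, 20 of 27 autophagy and 16 of 22 flavonoid genes, beside 8696 of all 17933 tested. Above 0 too were 11 of 19 jasmonate, 11 of 22 mitosis and 9 of 18 xenobiotic genes. Values were below 0 in 17 of 20 DNA replication, 17 of 25 proteasome and 11 of 15 iron genes, beside 9228 of all. Below 0 too were 13 of 19 starch, 14 of 23 nitrate and 9 of 17 DNA damage genes. These counts were not tested. Over these 12 lists, 25 of 252 genes had an unadjusted p below 0.05 in edgeR, beside 2901 of all 17933 genes tested. Of the 252, DESeq2 called 3 and limma voom called 0. Flavonoid and anthocyanin genes had medians of 1.73 with AZD8055 and 1.64 with TORIN1 over mock on the log2 scale, and low-energy genes -0.88 and -1.15. A p that misses the threshold does not show that the inhibitors act alike. The 95% interval reached a median to either side of 0.73 in the flavonoid list, 0.59 in the low-energy list and 0.29 in the autophagy list. Larger values, up to 0.82, 0.65 and 0.38 in these lists, did not pass either.

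Seen from mock, the directions differed. In 218 of the 234 lower genes (93.2%, beside 52% of all tested genes with a value below 0) the mock mean was above both inhibitors, so that AZD8055 lay further from mock than TORIN1. In 56 of the 89 higher genes (62.9%, beside 21.2% of all tested genes with a value above 0) the mock mean lay between the inhibitors, in 25 (28.1%, beside 49.4%) it was below both and in 8 (8.99%, beside 29.5%) above both. The LHCB1 genes belong to the first of these classes and AAP4, MYBR1 and COR47 to the second. By library ranges, TORIN1 alone overlapped mock in 37 of the 89 (41.6%, beside 13.3% of all tested genes with a value above 0). AZD8055 alone overlapped mock in 20 (22.5%, beside 12.9%), and neither inhibitor overlapped it in 30 (33.7%, beside 26.3%). The comparison chose the genes for a gap between AZD8055 and TORIN1, and the position of mock is a description with no test.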

How the data were processed

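Gene counts deposited by the authors, taken as raw, cover 33602 gene IDs in each of 12 libraries. Per the submitters' processing notes, StringTie 1.3.3, DESeq2 1.18.1 and TAIR10 were used; for the aligner, the strand and shared reads the sources used here give nothing. Counts were tested with edgeR 4.0.16 (R 4.3.3): all 12 libraries in 4 groups, TMM scaling, default low-count filter, robust quasi-likelihood test of AZD8055 minus TORIN1, two-sided, Benjamini-Hochberg over 17933 genes. SEs are the absolute log2 fold change over the square root of F; CPM is TMM-adjusted. The fit was tested on simulated data. DESeq2 1.42.0, limma 3.58.1 voom, other scalings, no filter, 6 libraries alone, a replicate block and left-out libraries were alternatives.

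The members and lists were chosen with earlier results of these data known, so no list was tested and lists are given as counts and medians. The planned permutation test of list shares is not given for that reason. Of 711 list entries 681 were paired with the reference. Ribosomal protein lists come from RefSeq notes. Named genes were called, at 1 CPM or more, not overlapping, and among the 15 steepest or 10 smallest p per direction or 4 per list and direction, plus all TOR pathway and type-A regulator genes. PSAD-1, LHCB2.1, RBCS1A, HD2B and HDA3 were added after their values were seen, and so was the GATAA motif. The root markers PRP3 and PYK10 are also named outside this rule. Promoters and names are from RefSeq TAIR10.1; 32835 IDs matched. Figures used Python 3.11.15 and matplotlib 3.10.9.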

Additional observations from a re-analysis of the deposited data

How the results depend on the processing

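The 323 called genes had AZD8055 and TORIN1 libraries that do not overlap, so their signs with libraries left out say nothing of stability. The median log2 fold change of the cell wall list ran from -0.03 (without AZD8055 replicate 1) to 0.12 with 1 library left out. The medians of the cytosolic ribosomal protein, ribosome biogenesis and translation factor lists kept their sign in each alternative. So did those of the type-A regulator, endoplasmic reticulum folding and photosynthesis lists. Medians of the remaining lists were not followed over the alternatives. Counts depended on the setting, and the cause was not tested. Some of the fits also held fewer libraries. Genes higher and lower with AZD8055 numbered 155 and 438 in DESeq2, 44 and 153 in limma voom, 68 and 83 with upper-quartile scaling, 40 and 21 with library totals, and 5 and 6 with the 6 libraries alone. Leaving out 1 library gave 7 to 137 higher and 6 to 303 lower, and leaving out TORIN1 replicates 2 and 3, an alternative chosen after seeing the data, gave 4 and 0.

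Cytosolic ribosomal proteins called lower numbered 20 with upper-quartile scaling, 7 with library totals, 1 with 6 libraries, 0 without TORIN1 replicates 2 and 3, and 1 to 64 with 1 library left out. Ribosome biogenesis had 8 in DESeq2, 1 with upper-quartile scaling, library totals or 6 libraries, 0 without both TORIN1 libraries, and 1 to 5 with 1 left out. Translation factors had 1 with RLE scaling, 0 with upper-quartile scaling, library totals, 6 libraries or without both TORIN1 libraries, and 0 to 4 with 1 left out. Cell wall genes had 1 with RLE scaling, 0 in limma voom, with upper-quartile scaling, library totals, 6 libraries or without both TORIN1 libraries, and 0 to 3 with 1 left out. Endoplasmic reticulum genes had 1 with library totals, 0 with 6 libraries or without both, and 0 to 3 with 1 left out. Type-A regulators had 0 with 6 libraries or without both, and 0 to 3 with 1 left out. Photosynthesis genes called higher numbered 4 to 6 with 1 library left out and 1 without both TORIN1 libraries.

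Replicate numbers were shared between groups, and the deviations of same-numbered AZD8055 and TORIN1 libraries correlated across genes with r of 0.18, -0.04 and 0.23, beside -0.3 to 0.13 for libraries of unlike number. The pairs numbered 1 and 3 had the highest r of all. The second pair did not correlate, and neither of its libraries correlated best with its own number. The main fit did not treat the numbers as pairs, the labels give no batch, and a shared batch was not tested. With a replicate block, 37 genes were higher and 119 lower, with 26 ribosomal protein, 1 ribosome biogenesis and 0 translation factor genes among the lower. The depth limits genes near 1 CPM, where few counts lie behind a level.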

Other observations

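KU63794, the inhibitor whose libraries were not part of the contrast, gives a further reference for the genes it picked. The 5 LHCB1 genes summed to 1429, 1493 and 1348 CPM with KU63794, within or near the mock range and above every TORIN1 library. The single genes differed in where KU63794 lay. LHB1B2 was at 314, 329 and 283 CPM with it, within the range of AZD8055, while CAB1 was at 489, 492 and 475 CPM, below every AZD8055 library and near the lowest mock library. LHB1B1, at 187, 234 and 162 CPM, CAB2, at 224, 260 and 230 CPM, and CAB3, at 215, 179 and 199 CPM, each had at least 1 KU63794 library below the AZD8055 range and all 3 above the TORIN1 range. Of the 234 genes lower with AZD8055 than with TORIN1, the KU63794 mean was nearer to the AZD8055 mean on the log2 scale in 215 (91.9%, beside 61.5% of all tested genes with a value below 0). Of the 89 higher genes it was nearer to AZD8055 in 65 (73%, beside 59.7%). KU63794 was given at 20 µM, and its libraries took part in the estimate of the spread, so these counts are descriptions with no test.

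The root marker PRP3, a proline-rich wall protein, was the only called marker of another organ. It was at 1.91, 1.19 and 0.946 CPM with AZD8055, 0.292, 0.34 and 0.153 CPM with TORIN1 and 1.98, 1.52 and 1.82 CPM in mock (log2 fold change 2.37; edgeR adjusted p = 0.0353), so that TORIN1 was low. The TORIN1 values lay near the level at which a gene with 0 counts could still be present (0.299, 0.322 and 0.204 CPM). The size of the change is therefore uncertain. The other 4 tested root markers did not pass, and the summed root marker share was 0.499% to 0.538% with AZD8055 and 0.51% to 0.696% with TORIN1. PYK10, which made up nearly all of that sum, had a log2 fold change of -0.36, while the other 4 were above 0 and the median of the 5 was 0.62. Over mock, the medians of the 5 were -0.40 with AZD8055 and -0.92 with TORIN1 on the log2 scale.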
